A study of Mus musculus with 18 samples.

Results

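Glycolysis enzymes and transketolase were followed through the first 4 days of embryoid body (EB) formation. The members are Gapdh, Tkt, Pgk1, Pkm, Eno1, Ldha, Aldoa, Tpi1 and Pgam1, chosen by name, and every clone whose only gene symbol in the probe gene table is one of them was taken. This gave 18 clones of 8 genes, out of 9866 clones and 7142 genes with a single symbol. Tkt had 6 clones, Gapdh and Pkm 3 each, Aldoa 2, and Tpi1, Pgk1, Pgam1 and Ldha 1 each. No clone carried the single symbol Eno1, so enolase is not described. A further 2 clones that name Gapdh beside other genes were not used, since cDNA of near-identical Gapdh copies could hybridise to either.

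The arrays compared 9 conditions. D0 is undifferentiated IMT11 ES cells, a mouse line grown with leukaemia inhibitory factor (LIF) in serum on gelatin. D1-LIF to D4-LIF are EBs of that line 1 to 4 days after aggregation without LIF, in hanging drops for the first day and floating after it, and D1+LIF to D4+LIF are the EBs of the same days with LIF. Every condition was set against a pooled control on 2 arrays with the dyes switched, so that its own cDNA was labelled Cy3 on one and Cy5 on the other, 18 arrays in all. The series' design text describes the pool as EBs of Days 1 to 4 only, whereas the study's own account has D0 cells in it as well, and the sources differ on this. All conditions come from 1 cell line, and an EB is a mixture of cell types, so fewer cells of a type and less RNA per cell cannot be told apart. The labels mention 2 biological sets but not which array belongs to which, and p-values measure the spread between these arrays only.

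Glycolysis splits glucose into pyruvate in the cytosol. Aldoa cleaves the hexose bisphosphate, Tpi1 interconverts the triose products, Gapdh oxidises glyceraldehyde 3-phosphate, Pgk1 makes the first ATP, Pgam1 moves the phosphate, Pkm makes the last ATP with pyruvate, and Ldha reduces pyruvate to lactate. Tkt, transketolase, belongs to the non-oxidative pentose phosphate pathway, which exchanges sugars with glycolysis. Undifferentiated mouse ES cells are known for a high rate of glycolysis, and Gapdh is often taken as a housekeeping control.

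Many glycolysis genes are known targets of the hypoxia-inducible factor, which binds the letters ACGTG or GCGTG. These were searched on both strands, overlaps counted, in the RefSeq windows of 300 bases from 250 before to 50 after each gene start (GRCm38.p6). All 9 members had a window. At least 1 match was present in 12 of 15 member windows, and in 43.8% of the 32851 windows of all genes. Windows of the same gene can overlap and share matches, as some of Eno1 and Aldoa do, so they are not separate counts. By gene, 8 of 9 members had a match in some window, against 46.7% of 27025 genes. Tpi1 had none. The windows shown are those of Gapdh and Aldoa, whose values ran together over the arrays, of Pgk1 and Ldha, textbook targets of the factor, and of Tkt, the enzyme outside glycolysis. Capitals mark the matches, read 5′ to 3′ on the gene's strand, and a match is a run of letters, not a measured site.
Gapdh, chr6:125165724-125166023, minus strand: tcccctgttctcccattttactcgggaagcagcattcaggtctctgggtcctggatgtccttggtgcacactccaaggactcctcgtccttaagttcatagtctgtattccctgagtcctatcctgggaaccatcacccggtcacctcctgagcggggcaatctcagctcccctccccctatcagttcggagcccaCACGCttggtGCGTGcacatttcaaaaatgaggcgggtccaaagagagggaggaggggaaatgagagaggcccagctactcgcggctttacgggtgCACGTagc
Aldoa, chr7:126799205-126799504, minus strand, 1 of 3 windows: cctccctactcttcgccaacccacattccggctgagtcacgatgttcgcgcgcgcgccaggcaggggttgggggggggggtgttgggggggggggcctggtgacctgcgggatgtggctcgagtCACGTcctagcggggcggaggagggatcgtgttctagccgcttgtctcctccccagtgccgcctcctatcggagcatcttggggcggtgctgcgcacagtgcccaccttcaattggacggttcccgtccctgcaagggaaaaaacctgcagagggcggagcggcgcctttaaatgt
Pgk1, chrX:106186850-106187149, plus strand: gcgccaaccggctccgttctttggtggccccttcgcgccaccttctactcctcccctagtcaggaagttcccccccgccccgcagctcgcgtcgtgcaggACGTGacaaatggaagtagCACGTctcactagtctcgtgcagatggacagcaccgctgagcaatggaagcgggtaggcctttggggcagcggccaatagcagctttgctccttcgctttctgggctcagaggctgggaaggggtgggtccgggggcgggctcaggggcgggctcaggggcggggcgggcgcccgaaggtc
Ldha, chr7:46845554-46845853, plus strand, 1 of 2 windows: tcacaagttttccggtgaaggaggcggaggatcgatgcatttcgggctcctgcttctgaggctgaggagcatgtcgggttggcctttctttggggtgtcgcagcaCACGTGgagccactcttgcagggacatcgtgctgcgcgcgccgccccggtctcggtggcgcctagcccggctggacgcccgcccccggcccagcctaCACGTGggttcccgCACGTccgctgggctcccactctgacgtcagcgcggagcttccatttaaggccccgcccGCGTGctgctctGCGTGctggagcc
Tkt, chr14:30548881-30549180, plus strand: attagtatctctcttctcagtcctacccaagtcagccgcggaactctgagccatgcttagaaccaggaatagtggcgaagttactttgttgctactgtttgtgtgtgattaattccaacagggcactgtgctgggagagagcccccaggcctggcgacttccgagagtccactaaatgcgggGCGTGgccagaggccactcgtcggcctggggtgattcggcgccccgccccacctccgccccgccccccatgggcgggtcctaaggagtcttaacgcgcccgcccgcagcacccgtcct
The Ldha window held 7 matches, counting both readings where CACGTG is its own reverse complement, Gapdh 3, Pgk1 2, and Aldoa and Tkt 1 each.

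The deposited values are linear ratios, read here as sample over pool. This direction is likely rather than certain, because the sample is the first channel in every label, but the ratio's direction is not stated. Values below are log2 ratios, averaged over the duplicate spots and centred on the array's median within each of the 2 slides. Over the clones used for centring, arrays of the same dye correlated with a mean r of 0.829 in Cy5 (0.627 to 0.951) and 0.379 in Cy3 (-0.279 to 0.807). The 2 arrays of a condition correlated with a mean r of -0.117. Each dye is therefore given apart.

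On slide 1 of several Cy5 arrays, whole print blocks held values that matched the other Cy5 arrays only when read 1 row, or 20 spots, away. The match was 20 spots on in blocks 1 to 18 of D1-LIF, in 33 of blocks 1 to 36 of D1+LIF and in blocks 1 to 25 of D2-LIF. In the blocks of these arrays that hold member clones, the correlation with the other Cy5 arrays was -0.01 to 0.34 as recorded and 0.42 to 0.96 at the offset. Such blocks were set missing. Of the 25 gaps among the members' values, 24 lay in them, spread over 9 clones. Of the 18 member clones, 8 had a value on every array and were tested. They stand for Gapdh and Aldoa (1 clone each, slide 1) and Pkm, Tpi1 (1 clone each) and Tkt (4 clones) on slide 2. Ldha, Pgk1 and Pgam1 had no such clone and are given by their arrays.

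**Figure D1:**
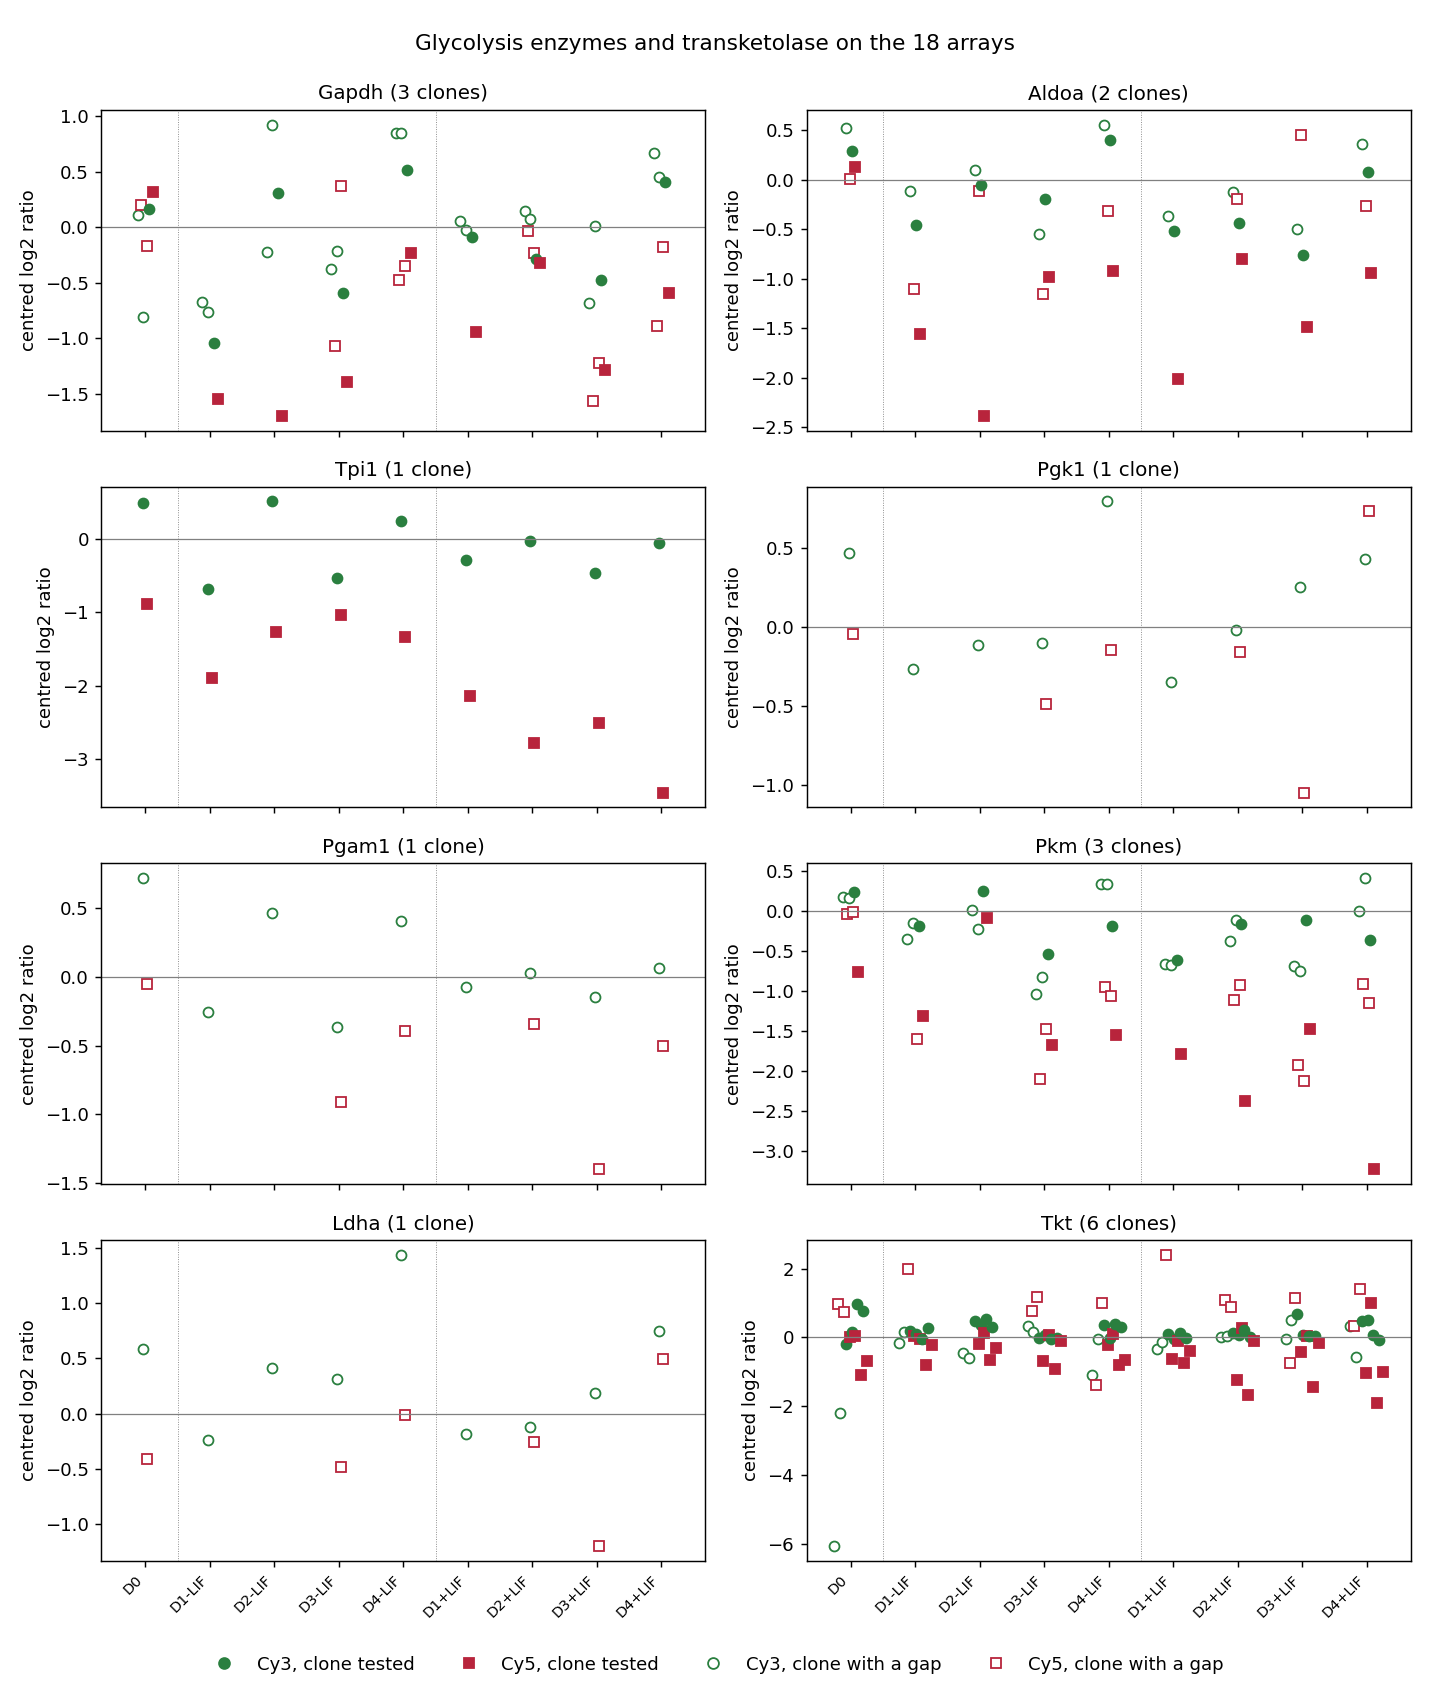
Centred log2 ratio (vertical axis) of every member clone in the 9 conditions (horizontal axis), Cy3 arrays as circles and Cy5 arrays as squares, filled where the clone had a value on all 18 arrays. Gapdh 14527, Aldoa 13120 and the Tpi1 clone were below D0 on all 8 Cy5 arrays of EBs, Gapdh 4783 on 4 of 5 and Aldoa 11298 on 6 of 7, while the Tkt clones scatter around 0 and the slide 1 Tkt clone at -6.06 on the D0 Cy3 array stands far from the rest. Of all clones without a gap, 17.81% on slide 1 and 16.13% on slide 2 were below D0 on all 8 Cy5 arrays.

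Most values of the glycolysis enzymes lay below D0 in EBs, and the mean of the slide 2 Tkt clones lay closer to it. On the log2 scale the mean of the 8 EB conditions minus D0 was -1.02 for Aldoa (standard error 0.30), -0.91 for Tpi1 (0.39), -0.82 for Gapdh (0.29), -0.70 for Pkm (0.34) and -0.14 for Tkt (0.12). These values rest on 2 D0 arrays, and without the Cy5 one they were -0.53 for Aldoa, -0.65 for Tpi1, -0.33 for Gapdh, -0.47 for Pkm and -0.25 for Tkt. No member passed the test, limma with a dye term and Benjamini-Hochberg adjustment over 4306 genes at an adjusted p under 0.05, where the adjusted p ran from 0.107 for Aldoa to 0.554 for Tkt. The test called 0.418% of all genes in this comparison. Aldoa, Gapdh and Tpi1, 3 of the 5 members, had an unadjusted p under 0.05, as had 836 of 4306 genes. The median over the 5 members was -0.82, and over all genes it was -0.02, with 52.2% of genes below 0.

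Aldoa, the aldolase of most tissues, was at 0.29 in Cy3 and 0.12 in Cy5 in D0 (clone 13120, named by its first spot). Without LIF it was at -0.45 and -1.55 on Day 1, -0.06 and -2.39 on Day 2, -0.20 and -0.98 on Day 3 and 0.40 and -0.92 on Day 4, Cy3 before Cy5. With LIF it was at -0.52 and -2.01, -0.43 and -0.80, -0.76 and -1.48, and 0.08 and -0.95 on the same days. Of the 16 EB arrays, 15 were below the D0 array of the same dye, all but D4-LIF in Cy3. As many or more EB arrays were below D0 for 13.9% of all genes. The largest differences to D0 were -1.47 in D1+LIF (standard error 0.40, adjusted p = 0.378 in limma) and -1.43 in D2-LIF (adjusted p = 0.929), and the smallest was -0.47 in D4-LIF. The other Aldoa clone, 11298, was below D0 on 7 of 8 Cy3 arrays and 6 of 7 Cy5 arrays, with a value of 0.45 in D3+LIF in Cy5 against -1.48 for clone 13120. The correlation of the Aldoa clones over 17 arrays, each dye centred, was 0.313.

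Tpi1, triosephosphate isomerase, stood at 0.48 in Cy3 and -0.89 in Cy5 in D0. Without LIF, Cy3 before Cy5, it was at -0.69 and -1.89 on Day 1, 0.51 and -1.27 on Day 2, -0.54 and -1.04 on Day 3 and 0.24 and -1.33 on Day 4. With LIF it was at -0.28 and -2.14, -0.04 and -2.79, -0.46 and -2.50, and -0.06 and -3.46. It was below D0 on every EB array but D2-LIF in Cy3, that is 15 of 16. For 13.9% of all genes as many or more EB arrays were below D0. The difference to D0 was -1.56 in D4+LIF (standard error 0.52, adjusted p = 0.0673 in limma), a comparison in which 9.78% of all genes were called, 258 lower and 163 higher (298 and 10 with centring over both slides, 199 and 2033 with no centring), and -0.18 in D2-LIF. The D4+LIF Cy5 array spread more widely than the D0 one, with an SD over slide 2 clones of 1.41 against 0.43. With the arrays scaled to equal spread (MAD) or by quantiles, no gene of all genes was called in D4+LIF. The part of this array's spread in the Tpi1 values was not tested.

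Gapdh, the triose phosphate dehydrogenase, was at 0.17 in Cy3 and 0.32 in Cy5 in D0 (clone 14527). Without LIF, Cy3 before Cy5, it was at -1.04 and -1.55 on Day 1, 0.31 and -1.70 on Day 2, -0.59 and -1.39 on Day 3 and 0.52 and -0.23 on Day 4. With LIF it was at -0.09 and -0.95, -0.28 and -0.32, -0.48 and -1.28, and 0.41 and -0.59. All 8 EB arrays in Cy5 and 5 of 8 in Cy3 were below D0, and 24.9% of genes had as many. The difference to D0 was -1.54 in D1-LIF (standard error 0.38, adjusted p = 0.145 in limma, with 0.116% of genes called) and -1.24 in D3-LIF (adjusted p = 0.274). In D4-LIF and D4+LIF it was -0.10 and -0.34, where the Cy3 arrays were above D0 and the Cy5 arrays below it. Gapdh clone 3381 followed clone 14527 (r = 0.864 over 15 arrays), whereas clone 4783 did so less (r = 0.446) and was above D0 on all 8 Cy3 arrays of EBs.

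Pkm, pyruvate kinase, was at 0.23 in Cy3 and -0.76 in Cy5 in D0 (clone 18117). Without LIF, Cy3 before Cy5, it was at -0.19 and -1.31 on Day 1, 0.25 and -0.09 on Day 2, -0.54 and -1.67 on Day 3 and -0.18 and -1.55 on Day 4. With LIF it was at -0.61 and -1.78, -0.17 and -2.37, -0.12 and -1.47, and -0.36 and -3.22. D2-LIF was the only condition not below D0, on either dye. For 19.7% of all genes as many or more EB arrays were below D0. The difference to D0 came nearest to the threshold in D4+LIF, at -1.53 (standard error 0.45, adjusted p = 0.0511 in limma), and was 0.34 in D2-LIF. With slide 2 alone, and with only clones whose duplicate spots lay within 1 of each other, the adjusted p in D4+LIF was 0.0474 and 0.0487. In that condition 9.78% of all genes were called as reported, and none with the arrays scaled to equal MAD or by quantiles. The slide 1 Pkm clones 3702 and 6582 followed each other (r = 0.904 over 15 arrays) but not clone 18117 (r = 0.256 and 0.208). Both slide 1 clones were below D0 on every Cy5 array of EBs where they had a value, 5 and 6 arrays.

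Over these members, 38 of 40 differences of an EB condition to D0 were below 0, the exceptions being Pkm and Tkt in D2-LIF. This count was 30 with the Cy3 ratios turned, 31 with no centring or with the offset blocks moved back, and 2 if every ratio were pool over sample. Limma called none of the 40, and 13 had an unadjusted p under 0.05, as had 124 (D4-LIF) to 1600 (D4+LIF) of all 4306 genes in a condition. The share of all genes called was 0.116% in D1-LIF, 0.0232% in D3+LIF, 9.78% in D4+LIF and 0% in the other conditions, and 47.9% to 56.6% of all genes were below D0. These 8 comparisons share the D0 arrays. The differences turned on single arrays. Without the D2-LIF array in Cy3, the D2-LIF difference was -2.16 for Aldoa and -1.66 for Gapdh. Without the D4+LIF array in Cy3, the D4+LIF difference was -2.36 for Pkm and -2.44 for Tpi1. Each then rests on 1 array of that condition, which is taken to vary like the others.

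**Figure D2:**
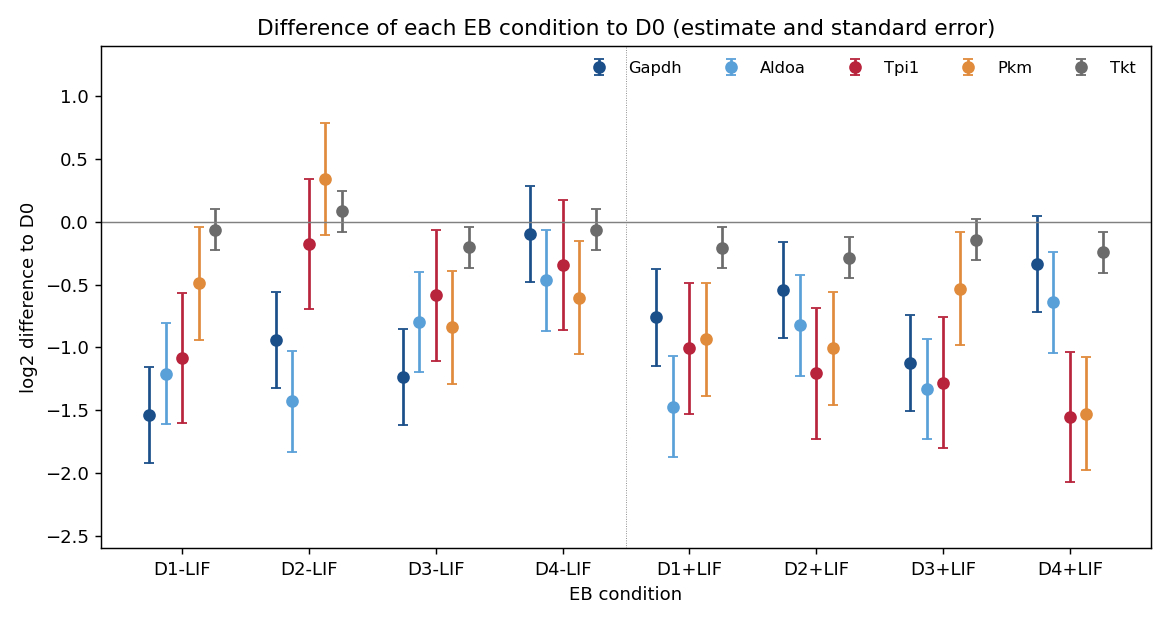
Difference to D0 on the log2 scale (vertical axis) of each EB condition (horizontal axis) for the 5 members tested, as the fitted estimate with its standard error over 2 arrays per condition. Aldoa, Gapdh, Tpi1 and Pkm lie below 0 in all conditions but D2-LIF for Pkm, and Tkt lies between -0.28 and 0.08.

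Pgam1, phosphoglycerate mutase, had no value on 3 Cy5 arrays (D1-LIF, D1+LIF and D2-LIF). In D0 it was at 0.72 in Cy3 and -0.05 in Cy5. All EB arrays with a value were below D0, from -0.36 to 0.47 on the 8 Cy3 arrays and from -1.40 to -0.34 on the 5 Cy5 arrays. Of the slide 1 clones without a gap, 21.05% were below D0 on all 8 Cy3 arrays. In a fit of every clone measured in each condition by either dye, the mean of the EB conditions minus D0 was -0.68 (standard error 0.18, adjusted p = 0.0604 in limma). Pgk1, phosphoglycerate kinase, was at 0.47 and -0.04 in D0 and was below it on 7 of 8 Cy3 and 4 of 5 Cy5 arrays. The exceptions were D4-LIF in Cy3 (0.79) and D4+LIF in Cy5 (0.74). In the same fit its mean difference was -0.38 (standard error 0.29, adjusted p = 0.356). Ldha, lactate dehydrogenase A, was at 0.59 and -0.42 in D0 and overlapped it, with 6 of 8 Cy3 and 2 of 5 Cy5 arrays below. Its highest EB values were on the D4 arrays, 1.44 in D4-LIF in Cy3 and 0.75 and 0.50 in D4+LIF. Its mean difference was -0.18 (standard error 0.29, adjusted p = 0.670).

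Where slide 1 member clones in the offset blocks had a recorded value, all but 1 (Aldoa 11298) were above 0, and all were below 0 when read at the offset. As deposited, before centring, all 7 member clones in these blocks on the D1-LIF Cy5 array were above 0 at their own spots, from 0.39 (Tkt 4824) to 1.25 (Ldha). A row earlier, all 7 values were below 0, from -3.35 (Gapdh 3381) to -1.24 (Tkt 4824). Member clones outside these blocks on the same array were at -2.66 (Gapdh 14527 and Aldoa 13120), -2.71 (Pkm 6582) and -2.21 (Aldoa 11298), and Tkt 15244 was at 0.89. On the D1+LIF Cy5 array 6 of 7 recorded values were above 0, and all 9 values a row earlier were below it, down to -3.70 for Pkm 6582. On the D2-LIF Cy5 array the 8 member clones had no value at their own spots, and a row earlier all 8 were below 0, from -3.83 to -1.95. Among all clones of the offset blocks, a value a row earlier was present for 2880 of 2880 in D1-LIF, 3530 of 5600 in D1+LIF and 609 of 4000 in D2-LIF. Of these values 15.4%, 26.7% and 68.3% were below 0 on the 3 arrays, and 16.4%, 26.7% and 72.0% of the recorded ones. The offset was found by likeness to the other Cy5 arrays, so that likeness is no separate evidence.

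With these values moved back, Ldha, Pgk1 and Pgam1 could be tested with the rest, over 4619 genes. The mean of the EB conditions minus D0 was then -0.69 for Pgam1 (adjusted p = 0.104 in limma), -0.39 for Pgk1 (adjusted p = 0.342) and -0.22 for Ldha (adjusted p = 0.648). No member passed in any comparison under that setting. Gapdh, then with 3 clones, was at -0.44 (adjusted p = 0.429). With the blocks kept as deposited Gapdh clones 3381 and 4783 stayed out for want of D2-LIF values, and clone 14527 gave -1.57 (adjusted p = 0.0644), since the centring changed with the clones it used.

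**Figure D3:**
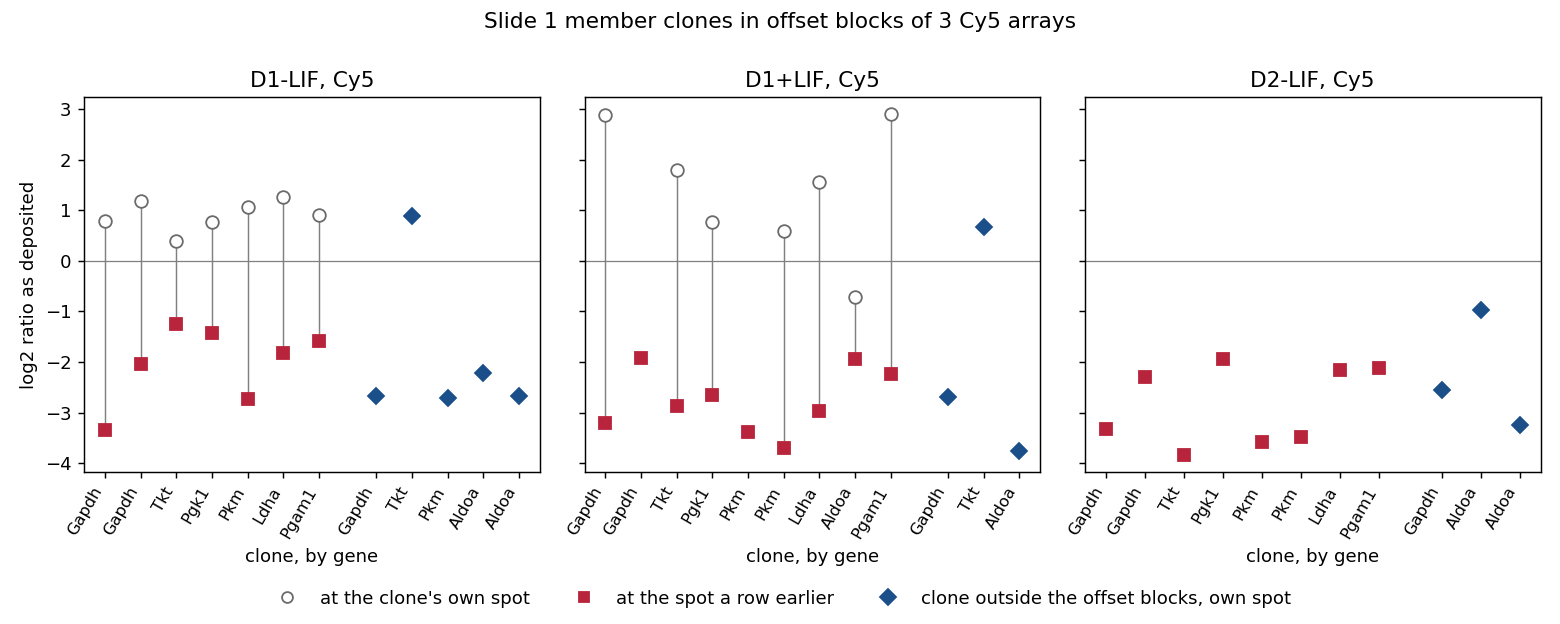
Log2 ratio as deposited (vertical axis) of slide 1 member clones (horizontal axis, by gene) on 3 Cy5 arrays, at the clone's own spot (open circles) and a row earlier (squares), with clones outside the offset blocks as diamonds. Nearly all open circles lie above 0 (1 Aldoa clone does not), and all squares lie below it. The diamonds lie below it too, but for Tkt 15244 at 0.89 in D1-LIF and 0.66 in D1+LIF. The D2-LIF array had no value at the clones' own spots.

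Tkt, transketolase, is described by clone as well as by its mean, since the clones disagreed. The mean of its 4 slide 2 clones was at 0.43 in Cy3 and -0.43 in Cy5 in D0. Without LIF, Cy3 before Cy5, it was at 0.12 and -0.25 on Day 1, 0.42 and -0.26 on Day 2, -0.01 and -0.40 on Day 3 and 0.26 and -0.39 on Day 4. With LIF it was at 0.05 and -0.47, 0.12 and -0.69, 0.20 and -0.49, and 0.25 and -0.74. All 8 EB arrays in Cy3 and 4 of 8 in Cy5 were below D0, and 30.3% of genes had as many or more below. The differences to D0 ran from -0.28 in D2+LIF to 0.08 in D2-LIF (adjusted p from 0.288 to 0.999 in limma). The sign of its mean difference was not stable, and it turned positive with no centring (0.23) and when the slide 1 clones entered the mean (0.53).

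The 6 Tkt clones disagreed among themselves. Over arrays with each dye centred, clone 30296 correlated with clone 33176 at 0.502 and with clone 19605 at -0.509. In D4+LIF minus D0, clone 19605 was at 0.65 (standard error 0.17, adjusted p = 0.0345 in limma per clone) and clone 30296 at -0.86 (standard error 0.33, adjusted p = 0.0831). The slide 1 clones 4824 and 15244 were at -6.06 and -2.19 on the D0 array in Cy3 and at 0.96 and 0.74 on the D0 array in Cy5. They had the lowest D0 Cy3 values of any member clone, and both were above D0 on all 8 EB arrays in Cy3. Before centring they were at -4.70 and -0.83 on the D0 Cy3 array, where the median of all slide 1 clones was -2.73. On the EB arrays in Cy3 that median lay between -0.48 and 0.06, so a rise over D0 in Cy3 was not particular to these clones.

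LIF made no difference that passed the test in the fit as reported. Over Days 1 to 4, the mean without LIF minus the mean with LIF was 0.71 for Tpi1 (standard error 0.26), 0.60 for Pkm (0.22), 0.16 for Tkt (0.08), 0.09 for Aldoa (0.20) and -0.26 for Gapdh (0.19). The adjusted p was 0.448 for Tpi1, Pkm and Tkt, 0.492 for Gapdh and 0.827 for Aldoa in limma. The share of all genes called was 0%, and 404 of 4306 had an unadjusted p under 0.05, Tpi1 and Pkm among them. By day, 0 of 20 member differences passed in limma and 3 had an unadjusted p under 0.05, with 0% of all genes called on any day and 46, 380, 78 and 746 of 4306 under that p on Days 1 to 4. Pkm on Day 2 was the largest, at 1.35 (standard error 0.45, adjusted p = 0.486), where both arrays without LIF were above D0 and both with LIF below it. Tpi1 differed by 1.21 on Day 4 (standard error 0.52, adjusted p = 0.286) and by -0.08 on Day 1. Over Days 1 to 4 the differences were 0.94 for Tpi1 and 0.81 for Pkm without the D4+LIF array in Cy3. That fit leaves 1 array in D4+LIF, and only its differences are given here. With the arrays scaled to equal MAD the differences were 0.016 for Tpi1 and 0.22 for Pkm, with quantiles 0.34 for Tpi1, and with the offset blocks moved back 0.17 for Pkm.

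No slope over Days 1 to 4 passed either. Gapdh without LIF had the steepest, at 0.40 per day (standard error 0.12, adjusted p = 0.9995 in limma), from -1.30 on Day 1 to 0.14 on Day 4 as the mean of both dyes. With LIF its slope was 0.07 per day, and the difference of the slopes was 0.33 (standard error 0.17, adjusted p = 0.679). With array quality weights the Gapdh slope without LIF passed (0.40, adjusted p = 0.0411 in limma). The share of all genes called with these weights is not given here, and the shares below are for the fit without them. The slopes of Aldoa were 0.29 per day without LIF and 0.20 with LIF, and neither passed. Of the 15 member slopes 2 had an unadjusted p under 0.05, as had 64 genes without LIF, 297 with LIF and 217 in the difference of slopes, and 1 gene of all genes was called, in the difference of slopes (0.0232%), with 0% in each slope. When limma's F test asked whether a gene varied over the 9 conditions at all, 0% of all genes were called and 306 had an unadjusted p under 0.05. Gapdh (adjusted p = 0.648), Aldoa (0.689) and Pkm (0.694) were among the latter.

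Members of the same slide correlated more with each other than with those of the other slide. With each dye centred over its 9 arrays, Gapdh and Aldoa, both on slide 1, correlated at 0.783 over 18 arrays. Tpi1, Pkm and Tkt, all on slide 2, correlated at 0.767 to 0.786. Ranked by likeness among all genes, Aldoa was at 6 for Gapdh and Gapdh at 3 for Aldoa. For Tkt, Pkm was at 51 and Tpi1 at 85. For Pkm, Tkt was at 553 and Tpi1 at 620, and for Tpi1, Pkm was at 604 and Tkt at 619. Many other genes were thus more like Pkm and Tpi1 than these members were. Between the slides the correlations were -0.17 to 0.23. The genes most like Gapdh were 4933427D06Rik (0.891), AU021092 (0.854), Mif (0.823), Ak4 (0.801) and Ppia (0.790), and those most like Tkt were Ganab (0.852), Tpm1 (0.844), Wdr36 (0.843), Mdk (0.834) and Mcm6 (0.830). These are descriptions over arrays that share a pool and a dye, and the clones of 1 slide share its scan and centring.

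The size of the difference to D0 for the slide 1 members hung on the centring. On the D0 Cy3 array, slide 1, the 247 clones without a gap on any array had a median of 1.36 before centring and all slide 1 clones one of -2.73. Gapdh 14527 and Aldoa 13120 were at 1.53 and 1.65 there as deposited. Centred on all clones of a slide, the mean difference to D0 was -3.05 for Gapdh (adjusted p = 0.0259 in limma) and -3.25 for Aldoa (adjusted p = 0.0292). Centred over both slides it was -2.07 and -2.27 (adjusted p = 0.00433 and 0.00527), and with no centring -1.64 and -1.84 (adjusted p = 0.0442 for both). Over all genes, too, more were called under both of the latter settings, as the closing section gives. For centring on all clones of a slide, the calls over all genes are not given here. Each centring shifts all clones of a slide on an array by the same amount. With no centring, 79.76% of the 247 slide 1 clones were below D0 on all 8 Cy3 arrays, and 24.7% on all 8 Cy5 arrays. Tpi1 and Pkm, on slide 2, moved less, from -0.96 to -0.54 and from -0.76 to -0.33 over these settings, and Tpi1 passed with centring over both slides (-0.96, adjusted p = 0.0439). With equal MAD, Tpi1 was at -0.45 and Pkm at -0.43. If the Cy3 ratios ran the other way, the differences were -0.50 for Gapdh, -0.49 for Aldoa, -0.26 for Tpi1, -0.23 for Pkm and 0.11 for Tkt, and none passed.

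**Figure D4:**
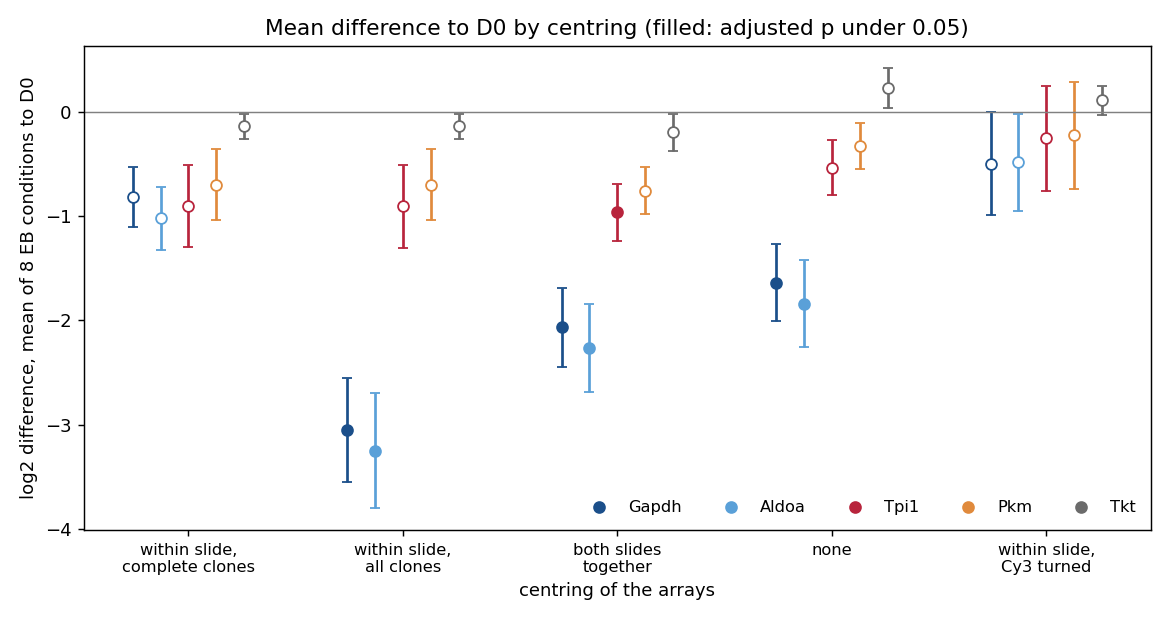
Mean of the 8 EB conditions minus D0 on the log2 scale (vertical axis, with standard error) for the 5 members tested under 5 ways to centre or sign the arrays (horizontal axis), filled where the adjusted p was under 0.05. Gapdh and Aldoa reach -3.05 and -3.25 with one centring and -0.82 and -1.02 with another, while Tpi1 stays between -0.96 and -0.26, Pkm between -0.76 and -0.23 and Tkt between -0.20 and 0.23.

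Among the other genes of glucose use none passed. Of 54 listed, 30 had a clone and 16 were tested, and limma called 0 of them in any comparison (0 with an unadjusted p under 0.05 in the F test, smallest adjusted p 0.0501 in any comparison). The median of the mean difference to D0 was -0.17, with 10 of 16 below 0, from -0.75 (Ldhb, a lactate dehydrogenase subunit named for this extreme after its value was seen) to 0.40. By lowest p in the F test the leading ones were Pdk3, a kinase that inhibits pyruvate dehydrogenase (0.09), Mpc1, a subunit of the mitochondrial pyruvate carrier (-0.34), Pfkm, a phosphofructokinase (0.40), and Dld, a subunit of pyruvate dehydrogenase (-0.67). Dld (-1.34, adjusted p = 0.0501) and Mpc1 (-0.80, adjusted p = 0.0503) came nearest to the threshold, in D4+LIF. Without LIF minus with LIF, 12 of 16 were above 0, with a median of 0.10. The control genes were at 0.02 for Actb and -0.46 for Hprt, and neither was called. The study, however, reported Actb and Gapdh as differentially regulated on its arrays and turned to a ribosomal RNA as its control. It also found Actb, Gapdh and Hprt to vary unpredictably as the cells differentiated. They are therefore not taken as a stable reference here.

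Markers bear on the labels only in part. Of 12 listed ES cell markers 8 had a clone and 3 were tested, at -0.10 for Nanog, -0.97 for Dppa5a and -0.46 for Dppa3 in the mean of the EB conditions minus D0, and limma called none. Of 12 markers of extraembryonic endoderm 7 were tested, with 4 below 0 and a median of -0.07. The mean differences were -1.32 for Sparc, -0.77 for Lamc1, -0.36 for Lamb1, -0.07 for Col4a1, 0.0018 for Dab2, 0.09 for Col4a2 and 0.33 for Gata4. Sparc alone was called, in D4+LIF (-1.94, adjusted p = 0.0414), where 9.78% of all genes were. Erythroid Hbb-b1 was at 0.08. The 3 fibroblast markers were at 0.51 for Col1a1, -0.11 for Col1a2 and 0.11 for Col3a1, and Col1a1 was called in D4+LIF (0.69, adjusted p = 0.0344), against the same 9.78%. No marker of primitive ectoderm or mesendoderm was tested. The part of these cell types in the members' values was not tested.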

How the data were processed

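Per the labels and methods, the authors read the spots with ImaGene, scaled the channels by their mean and deposited 1 linear ratio per spot and array, on 2 slides of 17280 spots. No genome build is given in the sources used here. The members, lists and tests were chosen with earlier results of these data known.

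The ratios were taken to log2. Each print block was compared, in 3 rounds, with the other arrays of its dye at several offsets, a step chosen after seeing the data. A block was set missing where its correlation at an offset was at least 0.5 and at least 0.2 above that at its own place, or where it lay between such blocks. This removed 81 blocks (1716 were checked). Copies 160 spots apart were averaged into 15360 clones. Each array was centred per slide on the median of the 7926 clones lacking no value, and these clones were averaged by gene.

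Limma 3.58.1 (R 4.3.3) used a mean for each condition and a term for dye, with Benjamini-Hochberg adjustment over 4306 genes. Dye is the replicate, and the number of arrays limits the precision. On simulated data for the mean of the EB conditions against D0 (4306 genes), 80% of changes of 1 in log2 and 100% of changes of 2 were called. The changed genes were drawn at random, with independent noise of equal spread on every array, whereas the real arrays differed in spread. The residual SD was 0.44 to 0.60 for the glycolysis enzymes tested, and the 80% does not give the power for them. Named were all members, the 4 other pathway genes of smallest F test p, the control genes, and the 5 genes most like Gapdh and Tkt. Clone numbers are first spots. Sequences are RefSeq's. Alternatives stand in the closing section.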

Additional observations from a re-analysis of the deposited data

How the results depend on the processing

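No member was called as reported, and 184 of 204 alternative counts stayed at 0. Those with a further 2-fold limit are 0 by construction, as they can only take calls away. The fits without 1 array share all their arrays with the fit as reported. The 184 is therefore no measure of stability. Chosen after seeing the data were slide 2 alone, centring within each slide on all its clones, and keeping or moving back the offset blocks. For single EB conditions against D0, the member calls were 10 with centring over both slides, 3 with no centring, 3 with centring within each slide on all clones, 3 with offset blocks moved back and clones with a value in each condition, 1 with clones whose duplicates lay within 1, 1 with slide 2 alone, 2 per clone (Pkm and Tkt in D4+LIF) and 18 with SAM. SAM compared 4 repeats with 4 of D0 (duplicate spots as repeats), called 0.0625% to 40.6% of all clones in a condition, and gave 14 lower and 10 higher member clone calls. The 10 were all of the slide 1 Tkt clones 4824 and 15244. For the mean of the EB conditions the calls were 3, 2, 2 and 3 with the first 4 of these settings, and for slopes 1 with array weights. Leaving out 1 array gave 0 to 2 calls for the EB conditions, their mean, LIF and LIF by day, and 0 to 1 for slopes and the F test. These are counts of members only. The calls over all genes moved with the settings too, and are given below for some of them. For the other settings the share of all genes called is not given here, so the member counts cannot be set against it.

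The mean difference to D0 of Tkt turned to 0.23 with no centring, 0.12 with equal MAD, 0.10 with quantiles, 0.11 with the Cy3 sign turned, 0.53 with clones with a value in each condition, 0.33 with offset blocks moved back and 0.49 with both. The LIF difference turned to 0.041 for Gapdh (all clones of a slide), to -0.24 (Cy3 turned) -0.027 (blocks moved back, both ways), -0.0911 (without D2-LIF Cy3) and -0.00188 (without D2+LIF Cy3) for Aldoa, and for Tkt to -0.029 (both slides), -0.078 (no centring), -0.082 (equal MAD), -0.00038 (quantiles) and -0.024 (blocks moved back, with each condition). Without 1 array, mean differences ran from -1.32 to -0.33 for Gapdh, -1.51 to -0.53 for Aldoa, -1.16 to -0.65 for Tpi1, -0.93 to -0.47 for Pkm and -0.25 to -0.03 for Tkt, each range set by leaving out one or the other D0 array, and the LIF difference of Aldoa from -0.09 to 0.27. The cause was not tested. With no dye term, that is without the replicate block, the member calls stayed at 0 and 0 of all genes were called in every comparison, against 421 with it in D4+LIF. Over all genes, the 18 calls for the mean of the EB conditions became 351 with centring over both slides, 54 with no centring, where the median gene moved to 0.34, and 2798 with blocks moved back and clones measured in each condition. In D4+LIF they became 2232 with no centring, 129 with blocks moved back and 0 with equal MAD or quantiles.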
